A study of Mus musculus with 58 samples.

Results

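Resident macrophages were followed here through 10 marker genes in the skeletal muscle and heart of mice bearing the C26 tumour, a transplantable mouse colon adenocarcinoma that causes wasting. The members are Adgre1, Cd68, Cd163, Mrc1, Csf1r, F13a1, Lyve1, Vsig4, Folr2 and Cd14, which make up 10 of the 18820 genes measured by a probe set with exactly 1 gene symbol. Each member was measured by 1 probe set. RNA of the m. extensor digitorum longus (EDL, a fast muscle), the m. soleus (SOL, a slow muscle) and the heart (HRT) had been hybridised to GeneChip Mouse Gene 1.1 ST arrays, 58 in all. All mice were male CD2F1 (a cross of BALB/c and DBA/2) aged 6 to 8 weeks, as the study's methods give it, and all received 1 subcutaneous injection of 0.2 ml under anaesthesia, so that this is shared by every group. Control mice (C) and trained control mice (C+WBV) were injected with buffer, and tumour-bearing mice (T) and trained tumour-bearing mice (T+WBV) with C26 cells in the right inguinal flank. Whole-body vibration (WBV) was given for 15 min a day at 45 Hz and 1.0 g, and tissues were taken at day 19, at least a day after the last session. EDL and SOL were analysed from 6 mice each of C, C+WBV and T and from 5 of T+WBV, and the heart from 3 mice of each group. The tumour is a cell line grown under the skin, and what reaches the muscles from it was not measured on these arrays.

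Resident macrophages settle in the connective tissue and around the vessels of muscle and heart, where they clear dead cells, iron-bearing haemoglobin and debris, and renew themselves or are refilled from blood monocytes. Csf1r is the receptor for the growth factors Csf1 and Il34, on which their survival rests, and Adgre1 encodes F4/80, the classical mouse macrophage antigen. Cd163 takes up haptoglobin-haemoglobin complexes, Mrc1 is the mannose receptor CD206, and Cd68 is a glycoprotein of late endosomes and lysosomes. F13a1 encodes the A subunit of coagulation factor XIII, which macrophages hold inside the cell. Lyve1 is a hyaluronan receptor of perivascular macrophages and also of lymphatic endothelium, Vsig4 is a receptor for complement C3 fragments, and Folr2 is folate receptor beta. Cd14 is the lipopolysaccharide co-receptor that hands its ligand to Tlr4, and it is found on monocytes as well.

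Values are log2 intensities, so that a difference of 1 is a doubling, and the median over all probe sets of an array lay between 4.52 and 4.60. They compare arrays for 1 gene and do not rank genes against each other. A gene was called where the adjusted p of limma was under 0.01, the threshold of the study's methods, and the share of all 18820 genes called in the same comparison is given beside the counts of members. Arrays of a group correlated at 0.969 to 0.9945, and no pair was identical. The labelled tissues held their own genes. In C, Myh4, the fastest myosin heavy chain, lay between 12.83 and 13.02 in EDL and between 6.33 and 7.76 in SOL. Myh7, the slow myosin heavy chain, lay between 12.33 and 12.48 in SOL, and Nppa, the atrial natriuretic peptide, between 12.61 and 12.87 in heart. Spi1, the macrophage transcription factor PU.1, and Ptprc, the leukocyte antigen CD45, were measured in each tissue, Spi1 with C medians of 4.25 (EDL), 4.73 (SOL) and 5.76 (heart) and Ptprc with 4.78, 5.00 and 6.30.

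In control mice the resident macrophage markers were highest in heart, intermediate in SOL and lowest in EDL, an order that the group means of all 10 members followed. All 10 were higher in heart than in EDL (19% of all genes were called higher in that comparison, and 31.9% in either direction). Vsig4 had the largest difference, with 5.31 to 6.16 in the C hearts and 2.61 to 2.88 in the C EDL (7.28-fold, adjusted p = 3.43e-14). Adgre1 followed, with 5.52 to 6.75 in heart and 3.41 to 4.14 in EDL (5.05-fold, adjusted p = 1.05e-13). These 2 and the other members all did not overlap between the tissues, as was so for 40.9% of all genes. The smallest difference was that of Cd68, 1.15 ± 0.34 (SE), with an adjusted p of 0.00454. Its call was lost without any of the 3 C hearts (adjusted p up to 0.0311), and after a second quantile normalization of all arrays (0.0112).

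Against SOL, 7 members were higher in the C hearts (15.4% of all genes were higher and 25% were called in all). The others were Cd68, which was 0.36 ± 0.34 higher, Lyve1, 0.65 ± 0.27, and Cd163, 0.71 ± 0.23. Between the muscles, 4 members were higher in SOL than in EDL (7.49% of all genes, with 13.9% called in all). Lyve1 was 2.13-fold higher in SOL (6.75 to 7.43 against 5.44 to 6.53 in EDL), F13a1 1.77-fold, Csf1r 1.58-fold and Adgre1 1.55-fold. Only the first 2 of these did not overlap between the muscles. With Cd68, which was not called, 3 of the 10 members did not overlap, beside 12.4% of all genes. Without EDL C replicate 2, the calls of Adgre1 and Csf1r were both lost (adjusted p = 0.0132 and 0.0133). Adgre1 was also lost without EDL C replicates 1 or 6 or SOL C replicates 2, 3 or 4 (up to 0.0223). Cd14 was 0.62 ± 0.18 higher in SOL at an adjusted p of 0.01004, just outside the threshold. In bulk tissue, more cells of a type and more RNA per cell cannot be told apart, which holds for every comparison below.

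The heart had the most members called between T and C. Of the 10 members, 7 were higher in T than in C and none was lower, with 2.7% of all genes called higher and 5.74% in either direction. The median difference of the 10 was 1.05, beside 0.0043 over all genes. In 8 members the 3 T hearts all lay above the 3 C hearts, which was so in either direction for 32% of all genes. F13a1 had the 4th smallest p of the 18820 genes.

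Among the scavenger receptors, Cd163 lay at 6.70, 5.89 and 6.35 in the C hearts and at 8.46, 8.64 and 8.24 in the T hearts. Each T heart exceeded each C heart by more than the spread of either group, and the difference of 2.13 ± 0.26 is a 4.39-fold rise (adjusted p = 0.000389). Mrc1 lay at 7.57, 7.55 and 7.42 in C and at 9.06, 9.09 and 8.89 in T. The C hearts were within 0.15 of each other, and Mrc1 rose 2.83-fold (1.50 ± 0.16, adjusted p = 0.000162). Cd68, the lysosomal glycoprotein, lay at 6.91, 6.78 and 7.26 in C and at 7.92, 7.64 and 7.57 in T. These groups were also apart, with a smaller rise of 1.65-fold (0.72 ± 0.15, adjusted p = 0.00601).

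F13a1 and Lyve1, which mark perivascular macrophages together, rose side by side. F13a1 lay at 8.34, 8.21 and 8.28 in the C hearts and at 9.58, 9.74 and 9.64 in the T hearts, a 2.60-fold rise (1.38 ± 0.12, adjusted p = 3.92e-05). Lyve1 lay at 7.90, 7.69 and 7.86 in C and at 9.50, 9.58 and 9.59 in T, a 3.34-fold rise (1.74 ± 0.21, adjusted p = 0.000389). In both genes the gap between the groups was many times the range within them. Vsig4, the complement receptor, lay at 5.39, 5.31 and 6.16 in C and at 6.83, 7.31 and 6.99 in T. C replicate 3 was the highest of the C hearts and still below each T heart, and Vsig4 rose 2.68-fold (1.42 ± 0.22, adjusted p = 0.00128). Folr2, the folate receptor, lay at 7.19, 7.06 and 7.25 in C and at 7.83, 7.60 and 7.68 in T (1.45-fold, 0.54 ± 0.09, adjusted p = 0.00241).

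Csf1r, Adgre1 and Cd14 were not called between T and C in heart. Csf1r lay at 7.89, 7.73 and 8.04 in the C hearts and at 8.40, 8.29 and 8.16 in the T hearts, which did not overlap, but the difference of 0.39 ± 0.11 missed the threshold (adjusted p = 0.0251). Without heart T+WBV replicate 2, which adds to the estimate of the spread, it passed (0.00924). Adgre1 lay at 6.33, 5.52 and 6.75 in C and at 5.94, 6.05 and 5.97 in T, so that the T hearts fell inside the C range (−0.21 ± 0.24, adjusted p = 0.661). Cd14 lay at 5.55, 5.30 and 5.97 in C and at 5.55, 6.08 and 5.90 in T, with an overlap of the groups (0.23 ± 0.21, adjusted p = 0.538). Cd163, Mrc1, F13a1, Lyve1 and Vsig4 were called in each of the 12 fits without 1 array. Folr2 was lost without C replicate 2 or T replicates 1 or 3 (adjusted p 0.0104 to 0.01235). Cd68 was lost without C replicates 1 or 2, any T heart, or C+WBV replicate 3 (0.01001 to 0.029), and in a fit of all 58 arrays, with the spread of the muscles pooled in, Cd68 and Folr2 had adjusted p of 0.271 and 0.305.

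**Figure D1:**
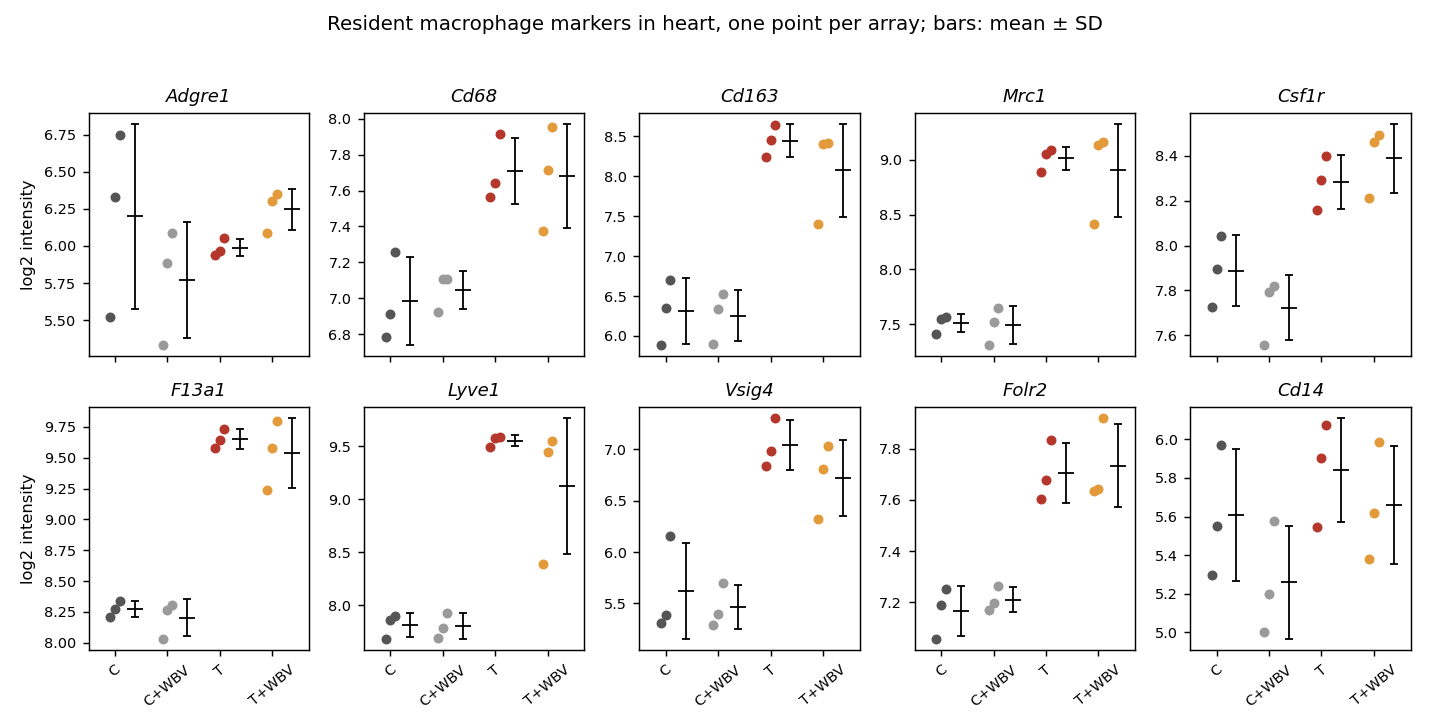
Log2 intensity of the 10 members in heart by group, with 1 point per array (3 in each group) and the mean ± SD beside them. In Cd163, Mrc1, F13a1, Lyve1, Vsig4, Folr2, Cd68 and Csf1r each T heart lies above each C heart, whereas Adgre1 and Cd14 overlap, and T+WBV replicate 2 is the lowest of its group in Cd163 at 7.40 and in Lyve1 at 8.39.

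Since Cd163, Mrc1, F13a1 and Vsig4 rose together in heart, their upstream sequences are shown, taken from RefSeq promoters (build GRCm38.p6). Windows of 6 of the 10 members were searched, with 8 start sites in all. Adgre1, Csf1r, Lyve1 and Cd14 were not searched, so the motif counts below do not describe all members. Each window is the 250 bases before a start site, read 5′ to 3′ on the strand of the gene, and lies outside the transcript that begins there. Capitals mark the core of the PU.1 motif, GAGGAA or its reverse TTCCTC, in either orientation. Cd163 is at chr6:124304401-124304650 (plus strand) and Mrc1 at chr2:14229164-14229413 (plus). F13a1 has a distal start behind chr13:37050245-37050494 (minus) and a proximal start behind chr13:37049214-37049463 (minus, inside the gene body of the distal transcript), and Vsig4 is at chrX:96293439-96293688 (minus).
Cd163: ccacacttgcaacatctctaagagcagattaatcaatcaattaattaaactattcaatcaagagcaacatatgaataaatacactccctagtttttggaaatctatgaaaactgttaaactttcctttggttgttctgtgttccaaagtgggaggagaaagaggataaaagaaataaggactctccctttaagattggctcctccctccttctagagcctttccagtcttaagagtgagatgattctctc
Mrc1: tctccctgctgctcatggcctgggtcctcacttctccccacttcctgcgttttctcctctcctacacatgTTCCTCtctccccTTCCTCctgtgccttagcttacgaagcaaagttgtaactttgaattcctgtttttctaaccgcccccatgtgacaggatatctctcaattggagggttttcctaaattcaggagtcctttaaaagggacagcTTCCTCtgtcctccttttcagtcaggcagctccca
F13a1 distal: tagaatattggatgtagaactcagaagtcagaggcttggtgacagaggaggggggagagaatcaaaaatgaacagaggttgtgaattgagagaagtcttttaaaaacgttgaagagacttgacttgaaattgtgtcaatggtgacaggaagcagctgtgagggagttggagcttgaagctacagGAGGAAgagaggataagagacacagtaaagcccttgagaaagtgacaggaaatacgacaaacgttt
F13a1 proximal: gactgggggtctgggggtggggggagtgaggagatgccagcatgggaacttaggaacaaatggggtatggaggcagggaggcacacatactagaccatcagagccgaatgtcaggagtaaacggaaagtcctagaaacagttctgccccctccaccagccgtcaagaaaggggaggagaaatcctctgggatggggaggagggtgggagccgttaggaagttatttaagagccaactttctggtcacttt
Vsig4: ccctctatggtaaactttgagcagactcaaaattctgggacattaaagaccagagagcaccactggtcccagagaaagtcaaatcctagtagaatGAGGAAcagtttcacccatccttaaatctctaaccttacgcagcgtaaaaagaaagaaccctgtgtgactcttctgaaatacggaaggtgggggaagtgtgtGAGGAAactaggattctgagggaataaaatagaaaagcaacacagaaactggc
The PU.1 core was found 3 times before Mrc1, 2 times before Vsig4, 1 time before the distal start of F13a1, and 0 times before Cd163 or the proximal start of F13a1. Of the 8 member windows 4 held it, beside 23.3% of 32841 windows of the same length. The AP-1 motif TGANTCA was in 2 of the 8 (6.8% of all windows), in Cd68 and Folr2. The STAT motif TTCNNNGAA (7.0%) and the glucocorticoid receptor motif (0.4%) were in 0 of the 8. Both strands were searched and overlapping matches were each counted. These are letters in a window, with no measurement of binding. Spi1, which encodes PU.1, was 0.51 ± 0.14 higher in T than in C in EDL (adjusted p = 0.00611), with differences of 0.57 ± 0.14 in heart (0.0167) and 0.29 ± 0.16 in SOL (0.216).

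In EDL, 4 members were higher in T than in C, namely Cd163, F13a1, Vsig4 and Cd14, and none was lower. This stands beside 10.7% of all genes called higher and 22.4% called in either direction. The median difference of the 10 was 0.61, beside −0.03 over all genes. The groups did not overlap in 2 members, as was so for 15.4% of all genes.

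Cd163 ranged from 4.39 through a median of 5.06 to 5.44 in the 6 C muscles and from 5.60 through 6.00 to 6.68 in the 6 T muscles. All T muscles were above all C muscles, and Cd163 rose 2.10-fold (1.07 ± 0.17, adjusted p = 4.03e-05). The call held in each of the 23 fits without 1 array. F13a1 ranged from 6.05 through 6.28 to 6.43 in C and from 6.43 through 6.69 to 7.33 in T. The highest C and the lowest T muscle nearly met, and F13a1 was 1.45-fold higher (0.54 ± 0.16, adjusted p = 0.00864). Vsig4 ranged from 2.61 through 2.77 to 2.88 in C and from 2.82 through 3.25 to 4.39 in T, with T replicate 4 inside the C range (1.59-fold, 0.67 ± 0.18, adjusted p = 0.00407). Its C values lie below the median probe set of the arrays, as do those of Adgre1 and Cd14. Cd14 ranged from 2.78 through 3.84 to 4.44 in C and from 3.50 through 4.65 to 5.47 in T (1.84-fold, 0.88 ± 0.24, adjusted p = 0.00588). C replicate 6 was the lowest and T replicate 2 the highest of these arrays.

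The calls of F13a1, Cd14 and Vsig4 lay near the threshold. Without 1 array, their log2 differences ran from 0.43 to 0.61, from 0.69 to 1.11 and from 0.48 to 0.80. Over these fits, F13a1 was called in 10 of 23 fits (adjusted p 0.00234 to 0.0299) and was lost without C replicates 1, 2, 4, 5 or 6, T replicates 1, 3, 5 or 6, or C+WBV replicates 2, 3, 5 or 6. Cd14 was lost without C replicates 2 or 6 or T replicates 1, 2, 5 or 6 (0.0108 to 0.0218), and Vsig4 without C replicate 1 (0.0104) or T replicate 3 (0.0101). Vsig4 (0.0137) and Cd14 (0.0241) were also lost with only the groups compared. The fit of all 58 arrays lost F13a1 (0.0116) and Vsig4 (0.0129), and probe sets in place of genes lost F13a1 (0.0152) and Cd14 (0.0117). With only the mice that also had a heart array, chosen after seeing the data, 0 members were called in EDL, and Cd163 had 1.03 ± 0.26 (0.0123).

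Cd68 in EDL owed much of the size of its difference to 1 array. It ranged from 5.58 to 6.08 in C, and in T it lay at 6.18, 9.26, 6.07, 6.12, 6.68 and 5.98, so that T replicate 2 stood apart from all other EDL. The difference of 0.92 ± 0.35 missed the threshold (adjusted p = 0.0499) and became 0.41 ± 0.15 without that array (0.0502). SOL of the same mouse also had the highest Cd68 of the T group, at 7.89. Lyve1 had 0.79 ± 0.26 (adjusted p = 0.0205), which passed at 0.00208 without EDL T+WBV replicate 3. It also passed with only the groups compared (0.00802) and in the fit of all 58 arrays (0.00714). Mrc1 had 0.44 ± 0.19 (0.0798), Adgre1 0.09 ± 0.16, Csf1r −0.04 ± 0.18 and Folr2 −0.23 ± 0.20, all of which overlapped between the groups.

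**Figure D2:**
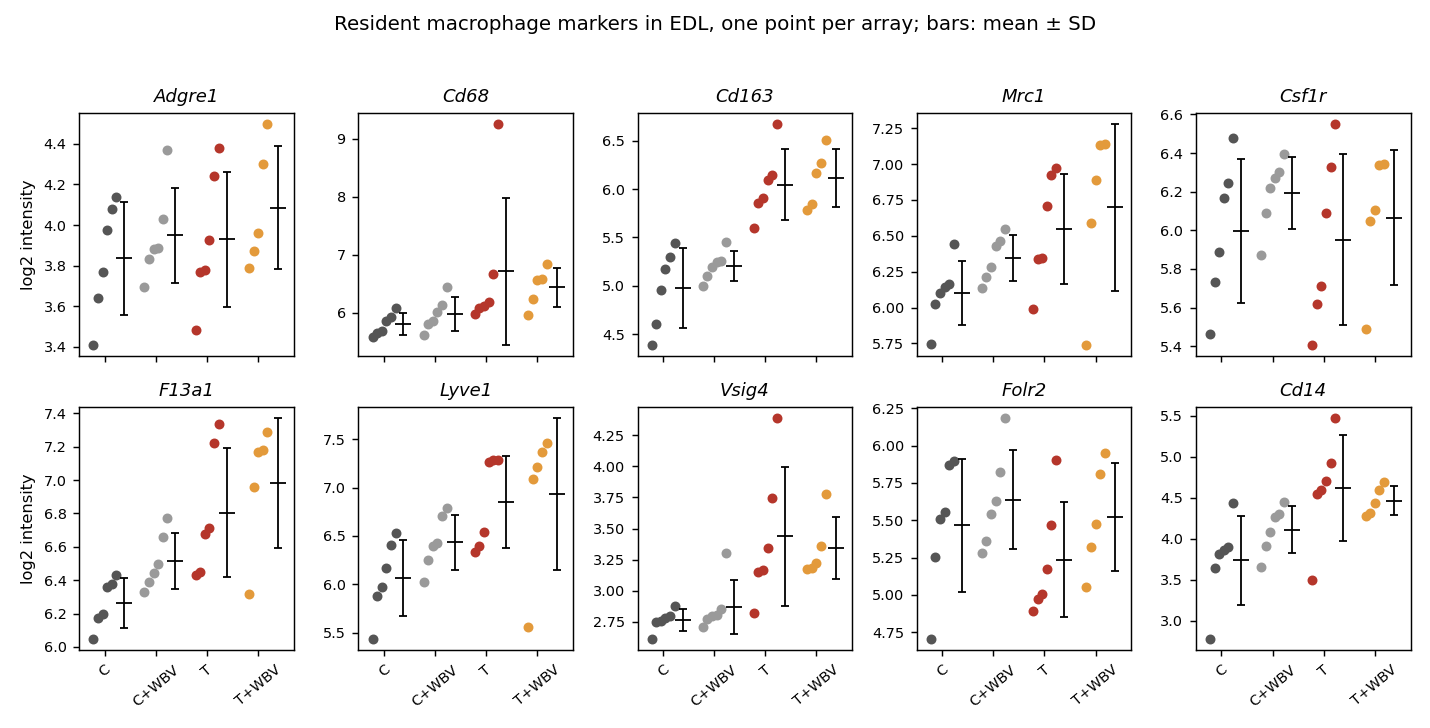
Log2 intensity of the 10 members in EDL by group, with 1 point per array (6 in C, C+WBV and T, 5 in T+WBV) and the mean ± SD beside them. Cd163 separates T from C without overlap, Csf1r and Folr2 do not differ beyond their spread, and the T array at 9.26 stands apart in Cd68.

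In SOL, Vsig4 was higher in T than in C and Folr2 was lower, and the other 8 members were not called. Of all genes 13.7% were called, 5.06% higher and 8.66% lower. The median difference of the 10 members was 0.19, beside −0.01 over all genes.

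Vsig4 ranged from 2.72 through 3.19 to 3.48 in the C muscles and from 3.59 through 4.55 to 4.92 in the T muscles. The groups did not overlap (10.6% of all genes), and Vsig4 rose 2.28-fold (1.19 ± 0.25, adjusted p = 0.00123) with the call kept in all 23 fits without 1 array. Folr2 ranged from 5.67 through 6.02 to 6.45 in C and from 4.46 through 5.33 to 5.81 in T. Only T replicate 3 reached into the C range, and Folr2 was 1.74-fold lower (−0.80 ± 0.21, adjusted p = 0.00594). The call was lost without C replicates 1, 3 or 4 or T replicates 1, 2 or 6 (0.012 to 0.0209). Csf1r, the growth factor receptor, ranged from 6.44 to 6.93 in C and from 5.28 to 6.70 in T (−0.49 ± 0.18, adjusted p = 0.0465).

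Cd163 ranged from 5.20 to 5.91 in the C SOL and from 5.49 to 6.79 in T (0.62 ± 0.21, adjusted p = 0.0348), and it passed without T replicate 2 (0.00952). Cd68 had 0.64 ± 0.25 (0.064), Lyve1 0.26 ± 0.21, Cd14 0.21 ± 0.14, Mrc1 0.16 ± 0.19, F13a1 −0.27 ± 0.20 and Adgre1 −0.41 ± 0.19. The T muscles were not alike. T replicates 1 and 2 had the lowest values of the T group in Cd163 (5.90 and 5.49), F13a1 (6.16 and 6.18), Csf1r (5.83 and 5.28), Folr2 (5.06 and 4.46), Mrc1 (6.34 and 6.15), Lyve1 (7.01 and 6.66) and Vsig4 (3.60 and 3.59). Cd68 did not share this, since T replicate 2 was its highest T muscle. With only the mice that had a heart array, 0 members were called in SOL, and Vsig4 had 1.57 (adjusted p = 0.0108).

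**Figure D3:**
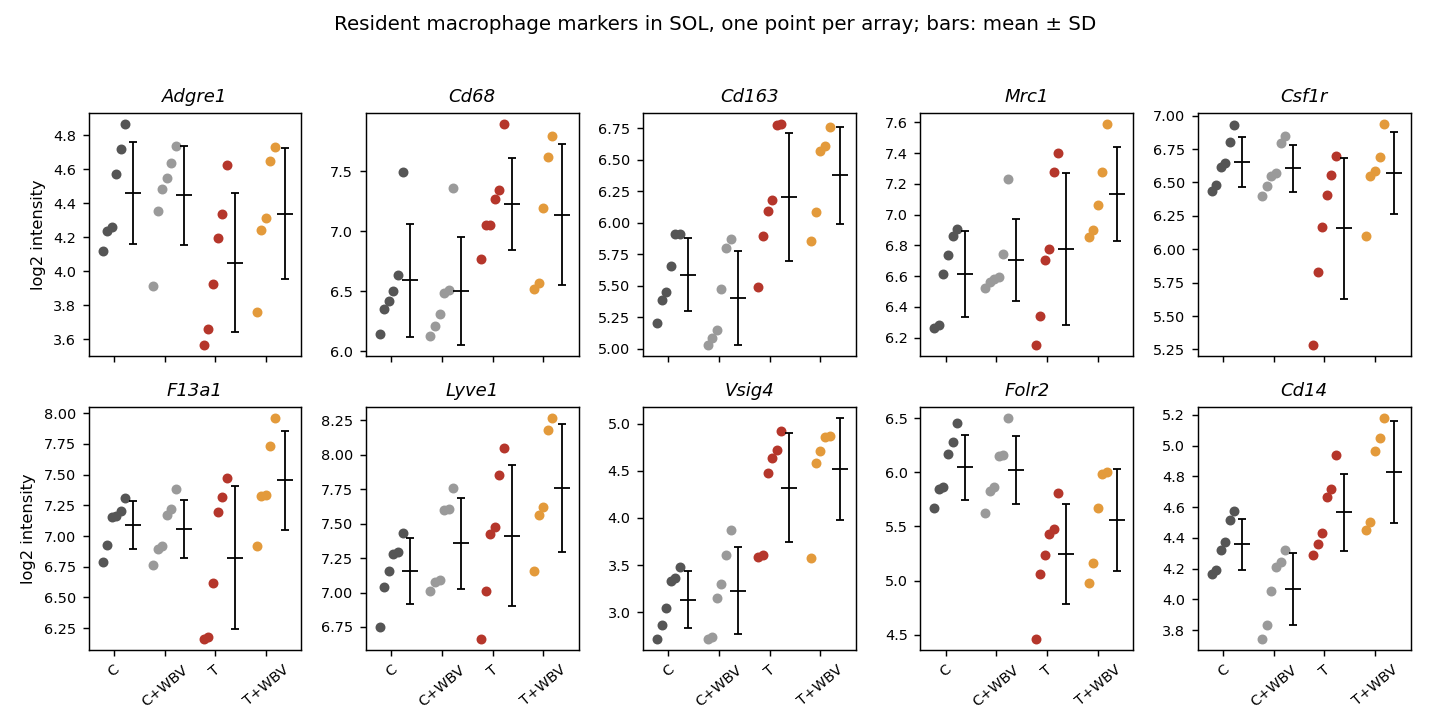
Log2 intensity of the 10 members in SOL by group, with 1 point per array (6, 6, 6 and 5) and the mean ± SD beside them. Vsig4 is higher in T than in C without overlap, Folr2 is lower in T than in C with T replicate 3 at 5.81 inside the C range, and F13a1 spreads in T from 6.16 to 7.47.

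Whether the tumour difference itself differed between tissues was tested on all 58 arrays with the mouse as a random block. Between heart and SOL it differed in 4 members, each with the larger value in heart (1.11% of all genes differed in this direction and 1.68% in either). F13a1 had 1.38 in heart and −0.27 in SOL, and the difference of these, as fitted over all arrays, was 1.61 ± 0.28 (adjusted p = 0.000183). Cd163 had a difference of 1.48 ± 0.33 (0.00373), Mrc1 1.32 ± 0.31 (0.00528) and Folr2, which rose in heart and fell in SOL, 1.32 ± 0.32 (0.00744). Vsig4, which was called in both tissues, had 0.19 ± 0.36 (0.867). Between heart and EDL 0 members differed at the threshold (3.5% of all genes, 1.79% with the larger value in heart). At an unadjusted p under 0.05 there were 5 members, beside 3951 of all 18820 genes. The largest differences were those of Mrc1, 1.04 ± 0.31 (adjusted p = 0.0238), and Cd163, 1.03 ± 0.33 (0.0428). Between SOL and EDL 0 members differed at the threshold (2.02% of all genes), and F13a1 came closest at −0.81 ± 0.23 (adjusted p = 0.0237). Here 4 members had an unadjusted p under 0.05, beside 3650 of all 18820 genes.

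The hearts came from 3 of the mice of each group, and the muscles from all of them. With the muscles of those mice alone, a choice made after seeing the data, F13a1 still differed between heart and SOL (1.32 ± 0.27, adjusted p = 0.00342). Cd163 had 1.21 ± 0.36 (0.0553), Folr2 1.15 ± 0.32 (0.036) and Mrc1 1.06 ± 0.29 (0.0345) and were no longer called. In that subset F13a1 in SOL was 0.06 ± 0.26 higher in T, against the sign over all mice. The 4 calls also fell to 1 without heart C replicates 2 or 3 or heart T replicates 1 or 2, and to 2 without SOL T replicates 1 or 2, SOL C replicate 3, heart C replicate 1 or heart T replicate 3.

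**Figure D4:**
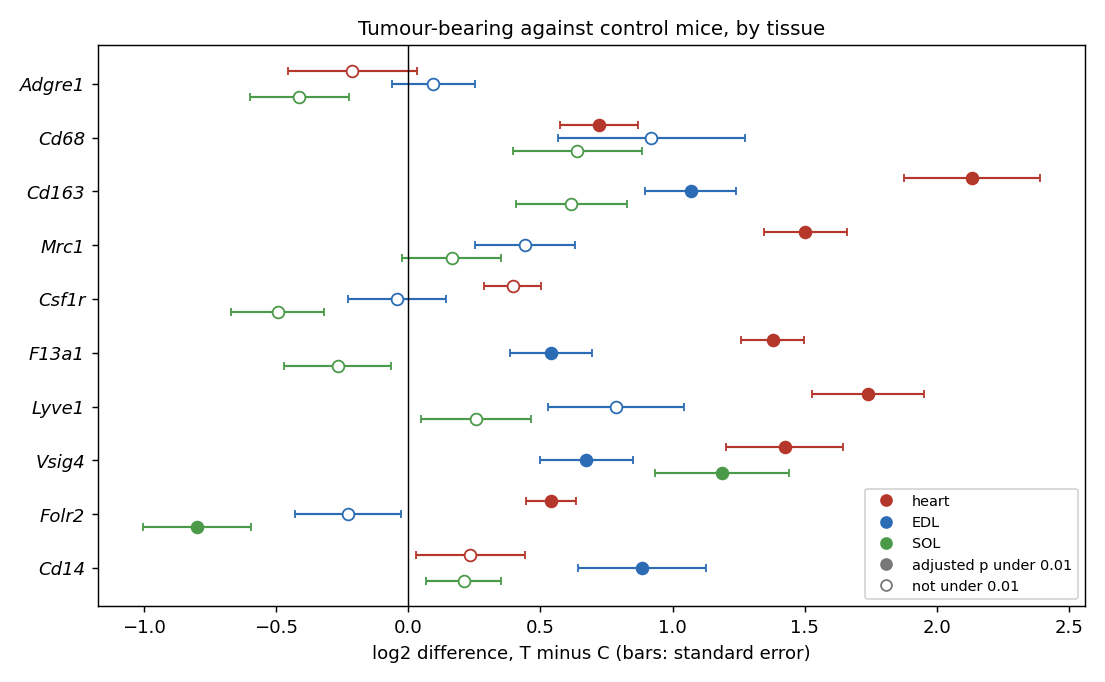
Log2 difference of T minus C for each member in heart, EDL and SOL, with bars for the standard error, filled where the adjusted p was under 0.01 and open otherwise. The heart point lies to the right of both muscles in Cd163, Mrc1, F13a1, Lyve1, Vsig4, Folr2 and Csf1r. Folr2 is on opposite sides of 0 in heart (0.54) and SOL (−0.80), and Adgre1 is open in each tissue.

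Training was set against no training in mice with and without a tumour. Between T+WBV and T, 0 of the 10 members were called in EDL, SOL or heart, and 0% of all genes were called in each tissue. At an unadjusted p under 0.05 there were 0 members in EDL, 2 in SOL and 0 in heart, and 902, 939 and 1407 genes of the 18820. F13a1 in SOL was the closest, with 6.16 to 7.47 in T and 6.92 to 7.96 in T+WBV, and a difference of 0.63 ± 0.21 (adjusted p = 0.928). The differences of the 10 members ran from −0.28 to 0.29 in EDL, from −0.09 to 0.63 in SOL and from −0.43 to 0.26 in heart, with standard errors of up to 0.37. Between C+WBV and C 0 members and 0% of genes were called, with 0, 1 and 0 members at an unadjusted p under 0.05 and 627, 598 and 625 genes. The interaction of tumour and training called 0 members and 0% of genes, with 0, 2 and 0 members and 596, 838 and 1105 genes at an unadjusted p under 0.05. None of the alternatives run called a member in these comparisons.

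The trained tumour-bearing hearts held high values of members that were also high in the T hearts. Set against C, with the same C arrays as above, T+WBV was higher in 5 members in heart (0.999% of all genes were called higher and 1.47% in either direction), namely Cd163 (3.39-fold), Mrc1 (2.62-fold), F13a1 (2.40-fold), Lyve1 (2.48-fold) and Folr2 (1.48-fold). T+WBV replicate 2 was the lowest of its group in Cd163, with 8.41, 7.40 and 8.41 in replicates 1, 2 and 3, in Lyve1 (9.45, 8.39 and 9.55), in Mrc1 (9.16, 8.41 and 9.14) and in F13a1 (9.80, 9.23 and 9.58). That mouse had the highest body mass of the tumour-bearing mice, 100.9% as labelled, against 75.9% to 91% in the others. Without that heart 8 members were called, and without T+WBV replicates 1 or 3 or C replicate 2 there were 2, and without C replicate 1 there were 3. Against C+WBV, 7 members were higher in the T+WBV hearts (1.01% and 1.49% of all genes), which were these 5, Vsig4 (2.39-fold) and Csf1r (1.59-fold). This count was 2 without T+WBV replicate 1 or C+WBV replicate 1, 3 without T+WBV replicate 3 or C+WBV replicate 3, and 4 without C+WBV replicate 2.

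In the muscles, Cd163 and F13a1 were higher in T+WBV than in C in EDL (2.20-fold and 1.65-fold, with 5.37% of all genes called higher and 11.1% in either direction), and Vsig4 in SOL (2.61-fold, with 2.01% and 4.67%). Without EDL T+WBV replicate 3, which had the lowest Lyve1 of all T+WBV EDL at 5.56, 4 members were called in EDL, and without replicate 1 there was 1. Without SOL T+WBV replicate 2 there were 2 in SOL. Against C+WBV, Cd163 was higher in EDL (1.87-fold, with 5.27% and 11.9% of all genes) and 3 members were higher in SOL (1.94% and 3.61%), which were Vsig4 (2.44-fold), Cd163 (1.96-fold) and Cd14 (1.70-fold). Without EDL T+WBV replicate 3 there were 3 in EDL. The count in SOL fell to 1 without T+WBV replicates 1, 4 or 5 and to 0 without T+WBV replicate 3. It was also 0 with the arrays of a name ending in _2 set as a covariate or with only the groups compared.

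Further gene lists were read against the share of all genes called between T and C (EDL 22.4%, SOL 13.7%, heart 5.74%). Of 27 other genes of resident macrophages, 10 (37%) were higher in the T hearts and none was lower, with a median difference of 0.35. Ccl8, a chemokine of perivascular macrophages, lay between 3.62 and 4.81 in C and between 6.35 and 7.73 in T (2.77 ± 0.31, adjusted p = 0.000274), and the complement genes C1qb (1.19 ± 0.13), C1qc (1.08 ± 0.14) and C1qa (1.07 ± 0.15) all rose. Clec10a, a galactose lectin, rose by 1.75 ± 0.21 and Fcna, ficolin A, by 1.51 ± 0.29. Timd4, the phosphatidylserine receptor of long-lived resident macrophages, had −1.05 ± 0.32 (adjusted p = 0.0442). In EDL 5 of the 27 were higher and 2 lower (25.9% in all, near the share of all genes), with C1qc at 1.04 ± 0.16 and the transcription factor Maf at −1.44 ± 0.24. In SOL 0 were higher and 1 was lower (3.7%), Fcrls at −0.82 ± 0.22. Maf and Cbr2, a carbonyl reductase, fell in EDL (Cbr2 with −1.20 ± 0.21) and rose in heart (0.64 ± 0.13 and 0.85 ± 0.11). The tumour difference was larger in heart than in EDL for both, by 2.13 ± 0.32 for Maf (adjusted p = 1.18e-05) and 2.05 ± 0.34 for Cbr2 (6.36e-05), and it also differed for Ccl8 (2.53 ± 0.46, 0.000221). These were the 3 genes of the 27 called in that comparison, beside 3.5% of all genes.

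Of the growth factors of Csf1r, Csf1 had −0.32 ± 0.14 in EDL, −0.43 ± 0.19 in SOL and −0.31 ± 0.15 in heart, and Il34 −0.32 ± 0.13, −0.24 ± 0.18 and 0.15 ± 0.13, and none passed. Of the 7 genes of the related receptors and ligands, 1 was higher in EDL, 2 in SOL and 2 in heart, and none was lower. Csf2rb, the shared beta chain of the receptors for GM-CSF, IL-3 and IL-5, was the gene called in all 3 tissues, with 1.43 ± 0.15 in EDL, 0.76 ± 0.17 in SOL and 1.47 ± 0.30 in heart.

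Along the pathway of Cd14, Lbp, which loads lipopolysaccharide onto it, rose in each tissue, by 1.42 ± 0.19 (EDL), 1.28 ± 0.19 (SOL) and 1.83 ± 0.26 (heart). Tlr4, the signalling receptor, rose by 1.51 ± 0.22 in EDL and 1.44 ± 0.24 in SOL, with 0.71 ± 0.20 in heart (adjusted p = 0.0307). Irak3, an inhibitor of the pathway, rose by 1.29 ± 0.13, 0.95 ± 0.15 and 1.42 ± 0.18. Of the 13 genes of the list, EDL had 4 higher and 1 lower (38.5%), SOL 4 higher (30.8%) and heart 2 higher (15.4%).

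On the side of Cd163, Hp (haptoglobin, its carrier ligand) rose by 1.62 ± 0.23 in EDL and 2.19 ± 0.49 in SOL, with 1.58 ± 0.57 in heart (adjusted p = 0.0841). Hmox1, the haem-degrading enzyme, lay between 5.48 and 6.05 in C and between 6.26 and 8.58 in T of EDL (2.00 ± 0.36), and between 6.24 and 6.62 in C and between 7.21 and 7.80 in T of heart (1.08 ± 0.35, adjusted p = 0.0552). Of the 9 genes measured, EDL had 4 higher and 1 lower and SOL 3 higher and 1 lower, with 0 called in heart. In heart 6 of the 9 had an unadjusted limma p under 0.05, beside 4979 of all 18820 genes. Tnfrsf12a, the receptor of TWEAK, another ligand of Cd163, had 1.73 ± 0.36 in EDL (adjusted p = 0.000581), 1.31 ± 0.44 in SOL (0.0314) and 0.45 ± 0.14 in heart (0.0499).

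Of 18 genes of macrophage activation, EDL had 3 higher and 1 lower (22.2%, about the share of all genes), SOL had 4 higher and 3 lower (38.9%), and heart had 1 higher and 2 lower (16.7%). Il4ra, the receptor for IL-4 and IL-13, rose in each tissue (1.40 ± 0.15, 1.47 ± 0.14 and 1.81 ± 0.24 in EDL, SOL and heart), while Retnla, a gene that IL-4 induces in macrophages, fell in each (−1.16 ± 0.21, −2.03 ± 0.26 and −2.19 ± 0.38). Gpnmb and Lgals3, made by lipid-laden and damage-associated macrophages and also by other cells, rose in EDL (2.17 ± 0.40 and 1.62 ± 0.21) and in SOL (1.68 ± 0.32 and 1.83 ± 0.35), with 0.69 ± 0.20 (adjusted p = 0.0325) and 0.20 ± 0.15 (0.475) in heart.

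Markers of other cells moved in the same arrays, and their part in the member differences was not tested. Of 20 pan-myeloid genes 6 were higher in EDL, 0 in SOL and 3 in heart, and 1 was lower, Cybb in SOL (−0.95 ± 0.20). These are 30%, 5% and 15% of the list in EDL, SOL and heart. The mean level of this list ran from 4.66 to 4.93 in C and from 4.98 to 5.31 in T of EDL, whereas in heart the T values of 6.40 to 6.46 lay inside the C range of 5.86 to 6.60. Ptprc had −0.03 ± 0.20 in heart (adjusted p = 0.955) and Aif1 −0.39 ± 0.18 (0.188). Of 12 monocyte genes 2 were higher in EDL, 1 was higher and 1 lower in SOL, and 1 was higher in heart (16.7%, 16.7% and 8.33%), and Ccr2, which draws monocytes into tissue, had 0.02 ± 0.11, −0.07 ± 0.23 and −0.57 ± 0.35. Of 13 neutrophil genes 5, 6 and 4 were higher in EDL, SOL and heart (38.5%, 46.2% and 30.8%) and none was lower, and the mean level in heart ran from 3.15 to 3.44 in C and from 4.12 to 4.75 in T. Of 11 lymphocyte and 8 dendritic cell genes 0 were called in any tissue by limma. In EDL, SOL and heart, 0, 0 and 6 lymphocyte genes and 1, 3 and 1 dendritic cell genes had an unadjusted p under 0.05. Of all 18820 genes, 7277, 6083 and 4979 did. The lymphocyte mean in heart was 3.30 to 4.06 in C and 3.18 to 3.28 in T. Of the erythroid genes 2 were measured and 0 were called (0, 0 and 2 at an unadjusted p under 0.05), with a mean in heart of 6.75 to 7.54 in C and 5.15 to 6.56 in T.

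Lyve1 is shared with lymphatic endothelium. Prox1, which defines that cell type but is also made by heart muscle, had −0.32 ± 0.10 in heart (adjusted p = 0.0452), −0.03 ± 0.12 in EDL and 0.13 ± 0.14 in SOL. Of 7 lymphatic genes 1 was higher in EDL and 2 in heart, Mmrn1 (0.99 ± 0.13) and Reln (0.61 ± 0.14), and the list mean in heart ran from 6.16 to 6.19 in C and from 6.26 to 6.54 in T. Of 8 fibroblast genes 4 were lower in EDL and 6 in SOL, Col1a1 by −3.41 ± 0.47 and −3.72 ± 0.48, and in heart 4 were higher and 1 lower. The mean level of the fibroblast list ran from 8.84 to 8.94 in the C hearts and from 8.99 to 9.29 in the T hearts. Of 8 vascular genes, EDL had 2 higher and 1 lower, SOL had 1 higher and 1 lower, and heart had 2 lower.

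Within the groups the members varied together to unequal degrees. With the mean of each group and tissue subtracted, the correlation over the 58 arrays had a median of 0.48 over the 45 pairs of members and ran from −0.16 to 0.84, the highest being F13a1 with Lyve1. This is a description, since EDL, SOL and heart arrays of a mouse and the normalization of an array are shared among the points. Against the mean of the other 9 members, F13a1 had 0.81, Csf1r 0.81, Lyve1 0.78, Cd163 and Mrc1 0.74 each, Adgre1 0.64, Folr2 and Vsig4 0.54 each, Cd14 0.35 and Cd68 0.02. The genes outside the members with the highest correlation to their mean were C1qb (0.82), Pf4 (0.82), Pdgfra (0.79), Lyz2 (0.79) and Ddr2 (0.78). C1qb encodes a chain of complement C1q, Pf4 a chemokine, Lyz2 lysozyme, Pdgfra the fibroblast receptor for platelet-derived growth factor, and Ddr2 a collagen receptor.

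Among the 11 tumour-bearing mice, levels were set against body mass at day 19, within training group. No member passed in EDL (1.17% of all genes did) or in SOL (0.335%). At an unadjusted p under 0.05 there were 6 members in EDL and 1 in SOL, beside 3748 and 2831 of all 18820 genes. Folr2 was the closest in EDL and rose by 0.46 ± 0.09 per 10 percentage points of body mass (adjusted p = 0.0123). In SOL it had 0.45 ± 0.14 (0.121). The lowest Folr2 of the T EDL, 4.89, belonged to the T mouse of the lowest body mass, 77.5%, and the highest, 5.90, to the T mouse of the highest, 91%. Leaving out the 2 mice whose body mass lay farthest from the median, the slope was 0.69 ± 0.18 in EDL (0.314) and 0.77 ± 0.33 in SOL (0.9997), and with the training term left out it passed in EDL (0.47 ± 0.08, adjusted p = 0.0034). Carcass mass in place of body mass gave 0.15 ± 0.04 per g in EDL (0.0483) and 0.18 ± 0.05 per g in SOL (0.0702).

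**Figure D5:**
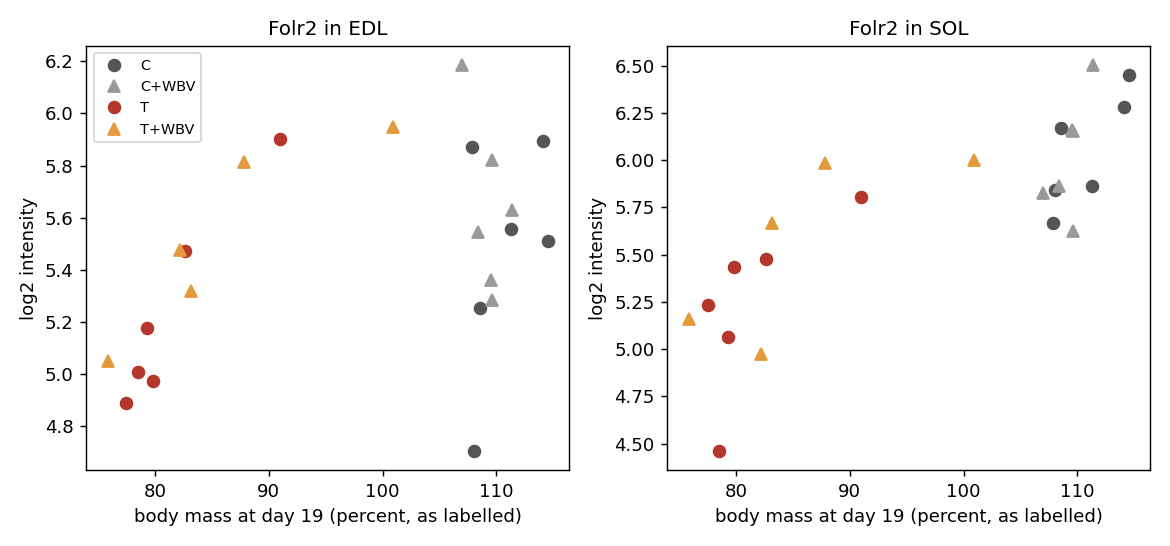
Folr2 log2 intensity (y axis) against body mass at day 19 in percent as labelled (x axis) in EDL and SOL, with 1 point per mouse, circles for untrained and triangles for trained mice. Among T and T+WBV mice the highest EDL values, 5.81 to 5.95, belong to the 3 mice at 87.8% or more, and the C and C+WBV mice lie between 4.705 and 6.185 in EDL.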

How the data were processed

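The deposited values were log2 intensities of 35556 probe sets on 58 arrays, which the authors made by robust multi-array averaging (RMA, version not given in the sources used here). Of the probe sets, 21218 had exactly 1 gene symbol in the platform annotation, 1881 had several and 12457 had none. Probe sets of a symbol were averaged, which gave 18820 genes. Each tissue was fitted with limma 3.58.1 (R 4.3.3) over its 4 groups, with eBayes and a mean-variance trend, and p-values were adjusted by Benjamini-Hochberg over all genes at 0.01. Comparisons between tissues used all arrays with the mouse as a random block (correlation 0.137, statmod 1.5.0). Slopes on body mass had a training term. The code was tested on simulated data. The number of arrays limits the precision.

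The members and lists were chosen with earlier results of these data known. Named were the members, up to 3 genes of each list with the largest called difference in a tissue, some defining markers fixed with them, and the 5 genes most correlated with the mean of the members. C1qa, Timd4, Hmox1 in heart and the tissue identity genes fell outside that rule and were chosen after their values were seen. Alternatives changed the variance prior, the normalization, the arrays in the fit, the features, the filter and the covariates, left out single arrays and, added after seeing the data, kept only mice with a heart array. What the labelled body mass is a percent of is not stated there, and the labelling kit differs between the labels and the study's methods.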

Additional observations from a re-analysis of the deposited data

Results flagged for a closer look

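In 7 of 80 groups of 5 or 6 muscle arrays, 1 array of a member stood apart from the others, where chance gives about 1 in 20. The gap to the nearest array as a share of the range was 0.788 for Cd68 in EDL T replicate 2 (9.26, nearest 6.68), 0.687 for Cd68 in SOL C+WBV replicate 3 (7.36, nearest 6.51) and 0.636 for Cd68 in SOL C replicate 5 (7.49, nearest 6.64). It was 0.693 for Mrc1 in SOL C+WBV replicate 2 (7.23, nearest 6.74) and 0.755 for Vsig4 in EDL C+WBV replicate 5 (3.30, nearest 2.85). In the other direction it was 0.805 for Lyve1 in EDL T+WBV replicate 3 (5.56, nearest 7.09) and 0.779 for Vsig4 in SOL T+WBV replicate 2 (3.57, nearest 4.58).

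The tumour difference was larger in heart than in SOL for 4 members, by 1.61 for F13a1, 1.48 for Cd163, 1.32 for Mrc1 and 1.32 for Folr2, by the limma interaction of tumour and tissue.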

How the results depend on the processing

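The counts of members called moved by over 1.5 times in these settings. Apart from the filter on level, the causes were not tested. With only the groups compared, T+WBV against C gave 4 in EDL and 1 in heart, and T+WBV against C+WBV gave 0 in SOL and 1 in heart. In the fit of all 58 arrays, T+WBV against C gave 4 in EDL, 2 in SOL and 3 in heart, and T+WBV against C+WBV 4 in heart. With 1 prior variance both heart counts were 3, and over probe sets they were 2, with T against C at 2 in EDL and 1 in SOL. With only genes above the median level, which took Adgre1, Vsig4 and Cd14 out of the muscle fits, T against C gave 2 in EDL and 1 in SOL. With this filter T+WBV against C gave 0 in SOL and T+WBV against C+WBV 1 in SOL. No member that stayed in these fits lost its call. The covariate for arrays of a name ending in _2 gave 0 for T+WBV against C+WBV in SOL. Without the mouse block, the tumour difference between heart and SOL was called in 2 members. Without the training term, the body mass slope in EDL was called in 1. With only mice that had a heart array, T against C gave 0 in EDL and 0 in SOL, the tumour difference gave 1 between heart and SOL and 1 between heart and EDL, and SOL against EDL in C gave 2. There Adgre1 in EDL had −0.13 and F13a1 in SOL 0.056, against the signs over all mice.

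Replicate numbers paired no mice across groups, and deviations from the group means of same-numbered arrays had a median correlation of 0.0087 (EDL), 0.0276 (SOL) and −0.0024 (heart). With the replicate number as a block, T against C gave 1 call in SOL, without Folr2 (adjusted p = 0.0112), and F13a1 in EDL had 0.0154.

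Without 1 array, the count for T against C was 2 to 5 in EDL, while SOL had 1 to 2 and heart 5 to 8. T+WBV against C gave 1 to 4, 1 to 2 and 2 to 8, and T+WBV against C+WBV 1 to 3, 0 to 3 and 2 to 8. SOL against EDL in C gave 2 to 6, and the tumour difference 0 to 1 between SOL and EDL and 1 to 4 between heart and SOL. T against C in EDL was 2 without T replicates 1, 3, 5 or 6 or C replicates 1, 2 or 6, T against C in SOL was 1 without T replicates 1 or 6 or C replicates 1, 3 or 4, and the tumour difference between SOL and EDL was 1 without SOL T replicate 4. Csf1r in EDL ran from −0.1637 to 0.0652 and Adgre1 in heart from −0.5513 to 0.0626. Over all settings 593 of the counts stayed within 1.5 times, 58 were lower and 10 higher by more. The 593 include comparisons in which no member was called to begin with. Of the results for single members, 1587 kept their sign and call, 191 lost the call, 7 gained it and 8 changed sign.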
